A study of Mus musculus with 12 samples.

Results

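The genes described here encode the proteins of the cytosolic ribosome, the particle that translates messenger RNA in the cytoplasm. They are the rows of the gene table whose symbol is Rpl or Rps followed by a digit, with Rplp0, Rplp1, Rplp2 and Rpsa added and the Rps6k kinases and names with -ps left out. The rule found 86 of 23479 rows. Of these, 46 encode core proteins of the large (60S) subunit and 31 encode core proteins of the small (40S) subunit, and the 9 other rows, described apart, are mostly paralogs and include Rps4y2, which is annotated as a transcribed pseudogene. The cells were myeloid-derived suppressor cells (MDSC), which build up in hosts with tumours and restrain T cells. They were sorted to over 99% purity from the spleens of C57BL/6 mice with established B16 melanomas. M-MDSC are the monocytic kind and PMN-MDSC the polymorphonuclear, neutrophil-like kind. The 4 groups of 3 libraries were M-MDSC LD, M-MDSC Ctrl, PMN-MDSC LD and PMN-MDSC Ctrl. LD mice were lymphodepleted with cyclophosphamide and fludarabine, and their cells were sorted 7 days later, while Ctrl mice bore the same tumours and were untreated. The age and sex of the mice are not given in the sources used here. The design gives 3 mice per treatment, but the labels do not tie a library to a mouse, so p-values measure the spread between these libraries.

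A ribosome joins a small subunit, which holds the messenger RNA and reads its codons, to a large subunit, which forms peptide bonds and passes the new chain through an exit tunnel. Each subunit is ribosomal RNA wrapped in many small proteins that are mostly present in 1 copy, so their genes are usually expressed together. Many of their transcripts begin with a run of pyrimidines, the 5′ terminal oligopyrimidine (TOP) tract, through which the mTORC1 pathway controls their translation. Neutrophils are short-lived cells that make many of their granule proteins before they leave the bone marrow, and monocytes go on to become macrophages.

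The deposited values are normalized counts, that is, reads per gene divided by 1 size factor per library, from totals of 8906045 to 16242926 reads. The sorted identities were reflected in marker genes. In the Ctrl comparison 11 of 12 monocyte markers were higher in M-MDSC and 12 of 12 neutrophil markers were lower. Among all genes tested, 38.8% were higher and 36.8% lower. The LD libraries with replicate number 1 stood apart in both populations. Summed normalized counts of 25 cell division genes were 21288.4, 6742.1 and 8633.0 in the M-MDSC LD libraries and 2946.7, 2324.4 and 2370.2 in the M-MDSC Ctrl libraries. In PMN-MDSC the same sums were 20154.5, 7019.1 and 8934.1 in the LD libraries and 9535.0, 10987.3 and 9789.3 in the Ctrl libraries. The 12 neutrophil markers together made up 1.06, 0.232 and 0.45% of the M-MDSC LD libraries, against 0.0948, 0.108 and 0.11% of the M-MDSC Ctrl libraries. For LD against Ctrl, 2.54% of all genes tested were higher and 0.468% lower in M-MDSC, and 7.17% higher and 8.51% lower in PMN-MDSC. Of 11 granulocyte-monocyte progenitor markers tested, 7 were higher in LD in M-MDSC and 3 in PMN-MDSC, with none lower. The numbers of core genes called in comparisons that involve LD are therefore also given without LD replicate 1 where they changed. Counts for the marker lists and other related lists are given with all libraries only. Globin genes had 0 reads in all groups.

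A minimum mean of 10 normalized counts over the 12 libraries left 43 large and 31 small subunit genes to test, 74 of the 77 core genes. Rpl26 had 0 reads in every library, and a count of 0 allows up to 3 reads over the 3 libraries of a group. Rpl30 had 0 to 10 reads per library and Rpl34 had 1 to 14. Many ribosomal protein genes have processed pseudogenes of nearly the same sequence, and how reads shared by several genes were assigned is not given in the sources used here. Over the core genes, between 1.4 and 100% of the 50-base stretches of the transcript were found in no other annotated gene, and 31 of the 74 genes tested had at least 50% of such stretches. Levels of genes with few unique stretches, among them Rps27 with 1.4%, are uncertain for that reason.

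Promoter windows of the RefSeq annotation (GRCm38.p6) were at hand for 57 of the 77 core genes, with 250 bases before and 50 after the annotated start. A pyrimidine tract, taken as a C followed by at least 4 C or T bases and beginning within 5 bases of the annotated start, was present in 27 of these 57 genes (47.4%). It was present in 21.2% of all 27025 genes with a window and in 24.6% of 69 genes for mitochondrial ribosomal proteins. The share was 47.1% for the large and 47.8% for the small subunit genes. The motif CCGGAAG, bound by factors of the ETS family, stood on either strand of the window in 42.1% of the core genes, 9.93% of all genes and 37.7% of the mitochondrial ribosomal protein genes. Where a gene had several windows, a match in any of them counted, and a window with a tract was the one printed. A match describes the sequence only. The printed stretches run from 60 bases before to 20 bases after the annotated start, 5′ to 3′ on the gene's strand, with the tract in capitals. They are the 3 genes of each subunit with a tract and the largest M-MDSC to PMN-MDSC differences in Ctrl, followed by Rps9, whose level did not pass the test between the populations.
Rpl12 (chr2:32961652-32961731, plus strand): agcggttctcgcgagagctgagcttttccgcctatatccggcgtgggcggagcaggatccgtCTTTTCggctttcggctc
Rpl35 (chr2:39005112-39005191, minus strand): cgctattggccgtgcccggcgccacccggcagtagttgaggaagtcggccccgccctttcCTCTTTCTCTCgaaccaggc
Rpl15 (chr14:18270967-18271046, minus strand): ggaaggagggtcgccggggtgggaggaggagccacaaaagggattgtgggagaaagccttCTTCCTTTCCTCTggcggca
Rps18 (chr17:33955646-33955725, minus strand): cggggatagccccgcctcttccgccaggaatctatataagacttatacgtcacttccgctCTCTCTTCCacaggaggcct
Rps15a (chr7:118116128-118116207, minus strand): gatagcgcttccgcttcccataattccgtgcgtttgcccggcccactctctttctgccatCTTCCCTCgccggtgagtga
Rps24 (chr14:24490618-24490697, plus strand): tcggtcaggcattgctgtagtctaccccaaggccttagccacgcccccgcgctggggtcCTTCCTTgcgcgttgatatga
Rps9 (chr7:3703981-3704060, plus strand): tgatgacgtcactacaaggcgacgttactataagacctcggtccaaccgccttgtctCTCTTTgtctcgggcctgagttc
Where several bases could open a tract, the C nearest the annotated start was taken, so that pyrimidines can stand before the capitals. Taken so, the marked stretch began at the annotated start in Rpl35, Rpl15, Rps18 and Rps15a and was 11, 13, 9 and 8 bases long. In Rps9 it began 3 bases before the annotated start of the printed window and was 6 bases long. That start lies downstream of the first annotated base of Rps9, at position 3703954.

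M-MDSC devoted several times more of their gene-assigned reads to ribosomal proteins than PMN-MDSC did, in LD and in Ctrl mice. The core large subunit genes summed to 1.04 ± 0.031% of the normalized counts in M-MDSC LD and 1.02 ± 0.077% in M-MDSC Ctrl, against 0.226 ± 0.040% in PMN-MDSC LD and 0.196 ± 0.033% in PMN-MDSC Ctrl (SD, n = 3 libraries each). For the small subunit genes the share was 0.741 ± 0.017% in M-MDSC LD, 0.717 ± 0.056% in M-MDSC Ctrl, 0.176 ± 0.037% in PMN-MDSC LD and 0.157 ± 0.027% in PMN-MDSC Ctrl. The lowest M-MDSC library lay above the highest PMN-MDSC library for both subunits. These shares are given with no test. In bulk samples, fewer cells of a type and less RNA per cell cannot be told apart. In every group but M-MDSC LD, most core genes were highest in the same library. In M-MDSC LD, replicates 1, 2 and 3 were the highest for 27, 16 and 31 genes. PMN-MDSC Ctrl replicate 3 was the lowest of its group for 71 of the 74 genes, and PMN-MDSC LD replicate 1 the highest of its group for 62.

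**Figure D1:**
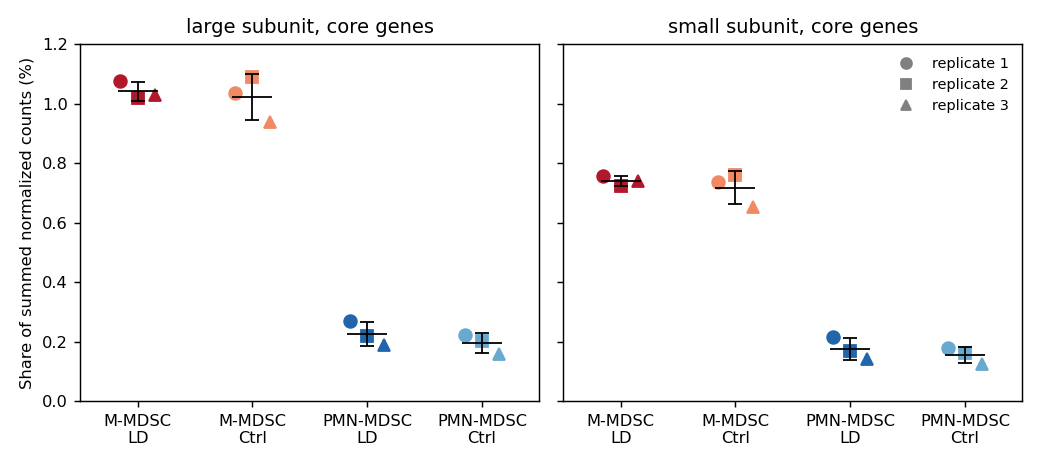
Share of each library's summed normalized counts (%, vertical axis) taken by the core large subunit genes (left) and core small subunit genes (right) in the 4 groups. Each symbol is a library, and the black lines give the mean and SD of 3 libraries; all M-MDSC libraries lie above all PMN-MDSC libraries, and the LD and Ctrl libraries of a population overlap.

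Gene by gene, nearly every core member was higher in M-MDSC. In limma's fit across 11122 genes, 42 of 43 large subunit genes passed an adjusted p of 0.05 in LD mice and 43 of 43 in Ctrl mice, all of them higher in M-MDSC. Of the 31 small subunit genes, 29 were higher and 1 lower in both LD and Ctrl mice. The background was wide, since 74.8% of all genes tested in LD and 75.6% in Ctrl passed. Higher levels in M-MDSC made up 38.8% of all genes in each comparison, and lower levels 36.1% in LD and 36.8% in Ctrl. The median log2 difference was 1.48 in LD and 1.79 in Ctrl for the large subunit genes (2.79-fold and 3.45-fold), and 1.58 in LD and 1.88 in Ctrl for the small subunit genes (3.0-fold and 3.67-fold). Over all genes tested it was 0.096 in LD and 0.065 in Ctrl. In LD 71 of the 72 calls were made in each of the 12 fits that left out 1 library, the exception being Rps27, and in Ctrl all 73 were. The libraries did not overlap for 43 large and 30 small subunit genes in both LD and Ctrl, 1 small subunit gene being lower. Over all genes the groups were separate with M-MDSC higher for 38.7% in LD and 41.9% in Ctrl, and with M-MDSC lower for 36.5% in LD and 39.1% in Ctrl.

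Among the large subunit genes with the widest gaps was Rpl3, which encodes a protein near the peptidyl transferase centre. Rpl3 had 2950.5, 3250.4 and 3383.0 normalized counts in M-MDSC LD, and 443.6, 230.9 and 225.8 in PMN-MDSC LD. It had 3376.1, 3242.8 and 3030.9 in M-MDSC Ctrl, and 387.6, 297.1 and 277.7 in PMN-MDSC Ctrl. The populations were about an order of magnitude apart, with a log2 difference of 3.48 ± 0.20 (SE) in LD and 3.34 ± 0.20 in Ctrl (limma, adjusted p = 1.23e-09 and 1.81e-09). Rpl10a, a protein of the L1 stalk, had the largest difference of all, 4.12 ± 0.41 in LD and 3.44 ± 0.41 in Ctrl (limma, adjusted p = 3.97e-07 and 2.79e-06). Its levels in PMN-MDSC were low and uneven, at 109.6, 27.9 and 22.4 normalized counts in LD and 70.4, 86.1 and 59.1 in Ctrl.

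Rpl4, whose protein lines the exit tunnel, had the smallest adjusted p of any core member in Ctrl. It had 5297.7, 5030.1 and 5013.5 normalized counts in M-MDSC LD, and 1546.0, 1223.8 and 1217.2 in PMN-MDSC LD. In Ctrl mice it had 6056.4, 5922.1 and 5253.5 in M-MDSC, and 1065.0, 995.8 and 900.3 in PMN-MDSC. The log2 difference was 1.95 ± 0.10 in LD and 2.54 ± 0.10 in Ctrl (limma, adjusted p = 4.92e-10 and 3.04e-11). The other exit tunnel genes had smaller differences: Rpl39 1.48 in LD and 1.86 in Ctrl, and Rpl17 0.69 and 0.78. The P-stalk recruits translation factors, and its genes Rplp0, Rplp1 and Rplp2 had log2 differences of 1.76, 1.47 and 1.35 in LD and of 2.29, 1.73 and 1.53 in Ctrl. Rpl5 and Rpl11 form the 5S particle, which also binds the p53 regulator Mdm2, and had differences of 1.88 and 1.48 in LD and of 2.13 and 1.79 in Ctrl. Rpl10, which joins the subunit last, had 1.81 and 1.92, Rpl13a had 1.61 and 1.62, and Rpl38 had 1.36 and 1.74, in LD and Ctrl.

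Of the small subunit genes, Rpsa had the largest difference in both treatments. It encodes a protein at the back of the 40S subunit, also known as the laminin receptor precursor. It had 8099.7, 8031.7 and 7762.0 normalized counts in M-MDSC LD, and 1847.6, 1053.2 and 908.7 in PMN-MDSC LD. In Ctrl mice it had 8039.5, 8073.1 and 6907.3 in M-MDSC, and 1090.5, 878.0 and 822.0 in PMN-MDSC. The log2 difference was 2.72 ± 0.19 in LD and 3.05 ± 0.19 in Ctrl (limma, adjusted p = 9.63e-09 and 2.64e-09), without overlap of the libraries. Rps4x and Rps23, which were among the genes with the smallest adjusted p in Ctrl, were 3.99-fold and 3.0-fold higher in LD, and 6.39-fold and 3.67-fold higher in Ctrl (limma, adjusted p = 2.67e-10 and 4.5e-10 in Ctrl). Rps23 lies at the decoding centre. Rps19, which is mutated in Diamond-Blackfan anaemia, had 2.30 and 2.79 in LD and Ctrl. Rps26, which contacts the messenger RNA exit channel, had 1.63 and 2.04. Rps6, the substrate of the S6 kinases, had 1.48 and 1.74, and Rps3, at the messenger RNA entry channel, had 1.22 and 1.33.

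**Figure D2:**
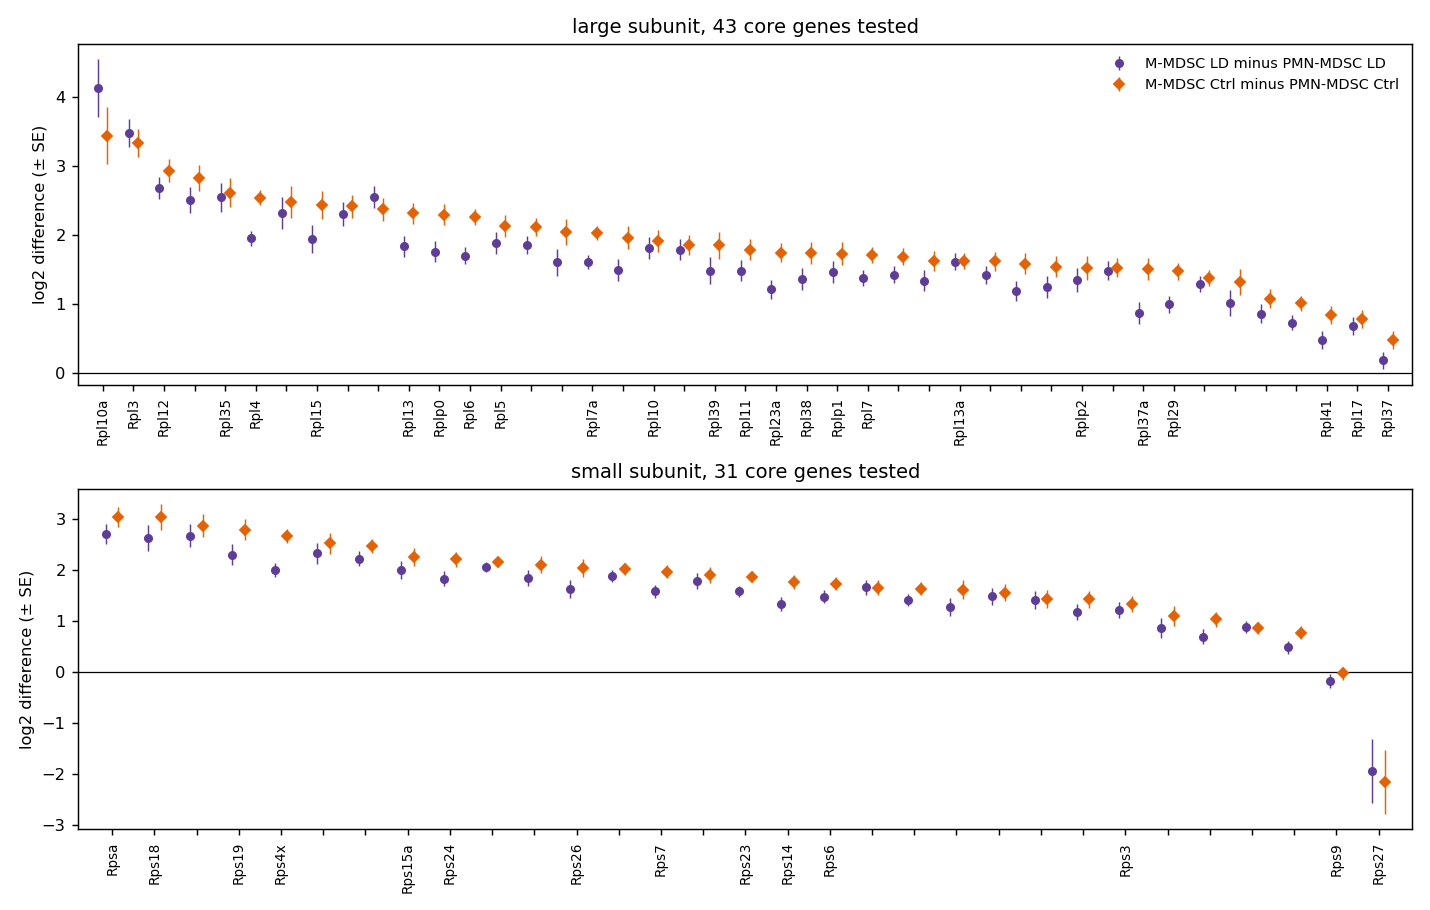
Log2 difference (vertical axis, with SE) of M-MDSC minus PMN-MDSC for each core gene tested, in LD mice (circles) and Ctrl mice (diamonds), ordered by the Ctrl difference, with the names of genes described in the text, for the large subunit (top) and small subunit (bottom). Rps9 and Rps27 alone lie below 0, and the LD and Ctrl differences of the 74 genes have a Pearson correlation of 0.97.

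A few members stood away from the rest, and they were picked after their values were seen. Rps9, an early-binding protein of the small subunit, had 5580.2, 5441.9 and 5924.7 normalized counts in M-MDSC LD, and 7113.1, 6308.6 and 5759.2 in PMN-MDSC LD. In Ctrl mice it had 6011.7, 6219.6 and 5206.4 in M-MDSC, and 7301.9, 5917.8 and 4756.7 in PMN-MDSC. The groups overlapped in both treatments, and the log2 difference was -0.17 ± 0.13 in LD and -0.03 ± 0.13 in Ctrl (limma, adjusted p = 0.249 and 0.865). Of its 50-base stretches 67% are unique, and its exons overlap no other annotated gene. Per kilobase of transcript, Rps9 was the most abundant of the 31 genes with mostly unique stretches in every group, at 7522 and 7740 normalized counts per kb in M-MDSC LD and Ctrl, and 8514 and 7979 in PMN-MDSC LD and Ctrl. The median of the 31 genes was 2169 per kb in M-MDSC LD and 2251 in M-MDSC Ctrl, and 692 in PMN-MDSC LD and 613 in PMN-MDSC Ctrl.

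Rpl37 had the smallest gap of the large subunit genes. It had 1572.7, 1477.4 and 1414.7 normalized counts in M-MDSC LD, and 1183.5, 1334.1 and 1405.1 in PMN-MDSC LD. In Ctrl mice it had 1389.1, 1650.6 and 1394.0 in M-MDSC, and 1221.1, 1125.0 and 849.2 in PMN-MDSC. The libraries did not overlap, by a narrow margin in LD, and the log2 difference was 0.19 ± 0.13 in LD and 0.48 ± 0.13 in Ctrl (limma, adjusted p = 0.191 and 0.00313). Rps27 was the only core member lower in M-MDSC, by -1.94 ± 0.63 in LD and -2.15 ± 0.63 in Ctrl (limma, adjusted p = 0.0119 and 0.00625). This rests on 3 to 64 reads per library, and in LD the call was not made without M-MDSC LD replicate 2 or without PMN-MDSC LD replicate 2, at -1.53 and -1.55.

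The scaling bears on these exceptions, since PMN-MDSC have larger sums of normalized counts than M-MDSC (13715662 to 15808125 in LD and 13896496 to 14479938 in Ctrl, against 8572575 to 9071830 in M-MDSC LD and 9035531 to 9397397 in M-MDSC Ctrl). When libraries were scaled to equal totals instead, the median over all genes was 0.825 in LD and 0.688 in Ctrl. Rps9 was then higher in M-MDSC by 0.56 in LD and 0.60 in Ctrl (limma, adjusted p = 0.00226 and 0.00135), which is below those medians. Rpl37 was higher by 0.92 in LD and 1.11 in Ctrl. The difference of Rps27 was -1.28 in LD, where it no longer passed (adjusted p = 0.0747), and -1.58 in Ctrl. Of all calls on that scale 73.6% in LD and 70.3% in Ctrl were higher in M-MDSC, against 51.8% and 51.4% with the deposited scaling. The medians of the core genes were 2.22 and 2.32 in LD and 2.42 and 2.51 in Ctrl for the large and small subunits on that scale.

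**Figure D3:**
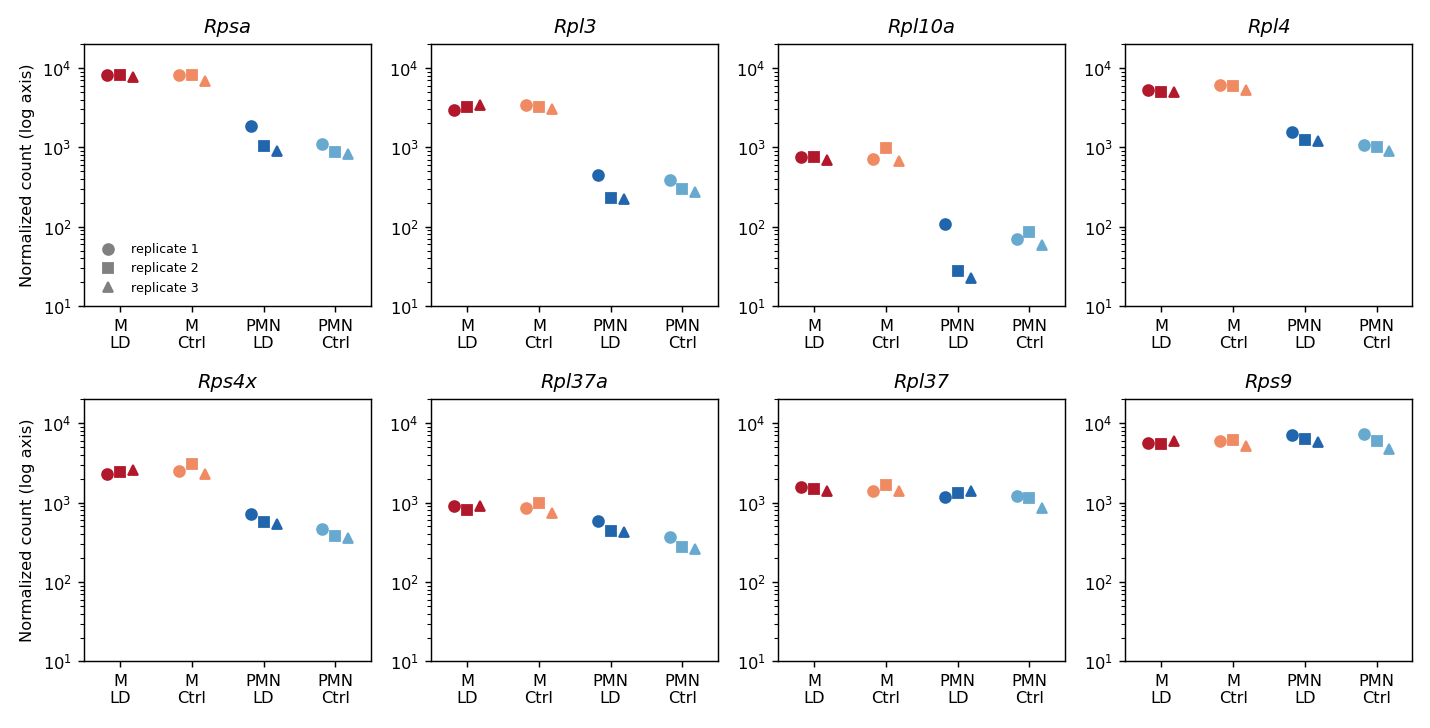
Normalized counts (log axis) of 8 core genes in the 12 libraries, by group, with 1 symbol per library. Rpsa, Rpl3 and Rpl10a are several-fold higher in M-MDSC, Rpl4, Rps4x and Rpl37a are also higher in PMN-MDSC LD than in PMN-MDSC Ctrl, and the libraries of Rps9 overlap between all groups.

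The order of the genes was much the same in treated and untreated mice, whose libraries are separate. Across the 74 core genes, the M-MDSC to PMN-MDSC difference in LD and that in Ctrl had a Pearson correlation of 0.97 and a Spearman correlation of 0.95, given as a description across genes, which are not independent. Over all 11122 genes both were 0.93, so a high correlation is general in these data. For 68 of the 74 genes the difference was lower in LD than in Ctrl, against 5180 of all 11122 genes. This is the same quantity as the difference of the LD changes, described below with its dependence on single libraries. The standard deviation of the differences over the core genes was 0.81 in LD and 0.80 in Ctrl. Of the 31 genes with mostly unique 50-base stretches, 29 were higher in M-MDSC in LD (median 3.04-fold) and 30 in Ctrl (median 3.62-fold). Of the 43 others, 42 were higher in both (medians 2.83-fold and 3.45-fold). The 26 tested genes with a pyrimidine tract at the start had a median of 1.60 in LD and 1.89 in Ctrl, and the 29 genes with a promoter window but no tract had 1.58 and 1.79.

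No ribosomal protein gene passed the test for LD against Ctrl in M-MDSC. Of the 43 large and 31 small subunit genes 0 passed in limma, where 3.01% of all genes tested passed, 2.54% higher and 0.468% lower in LD. None had an unadjusted p under 0.05, against 1461 of all 11122 genes tested. On the recovered reads edgeR and DESeq2 also called 0 of the core genes. The median log2 difference was -0.00 for the large and 0.03 for the small subunit genes, with a range of -0.27 to 0.12 over the 74. The median standard error was 0.15 on the log2 scale, so small changes were not detectable at this precision. Rplp0 had 5974.3, 6837.0 and 6599.6 normalized counts in M-MDSC LD, and 6589.5, 7179.4 and 5721.9 in M-MDSC Ctrl. Rps6 had 1702.4, 1821.3 and 1793.0 in LD, and 1636.8, 1866.8 and 1635.8 in Ctrl. Rpl4 had the largest fitted decrease among the better-measured genes after Rpl41, with -0.17 ± 0.10 (limma, adjusted p = 0.597). This stands beside the cell division genes, of which 17 of 25 were higher in M-MDSC LD with a median log2 difference of 2.31, and whose part was not tested. The median coefficient of variation of the 74 genes was 4.9% over the M-MDSC LD libraries and 11.2% over the M-MDSC Ctrl libraries.

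In PMN-MDSC most fitted changes were above 0 in LD mice, but the calls depended on single libraries. Of the large subunit genes 8 of 43 were higher in LD and of the small subunit genes 4 of 31, with none lower (limma, adjusted p under 0.05), where 15.7% of all genes tested passed, 7.17% higher and 8.51% lower. Over the 74 genes, 68 fitted differences were above 0 and 27 had an unadjusted p under 0.05. Over all 11122 genes tested, 5083 were above 0 and 3430 had an unadjusted p under 0.05. The median log2 difference was 0.29 for the large and 0.23 for the small subunit genes, against -0.05 over all genes tested. These are 1.22-fold and 1.18-fold. The genes called in the large subunit were Rpl4, Rpl6, Rpl7a, Rpl13, Rpl23a, Rpl29, Rpl37a and Rplp0, and in the small subunit Rps4x, Rps7, Rps14 and Rps23.

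Rps4x, an RNA-binding protein of the 40S body, had 722.3, 567.8 and 539.9 normalized counts in PMN-MDSC LD, and 470.3, 384.1 and 360.7 in PMN-MDSC Ctrl. The libraries did not overlap, and the log2 difference was 0.59 ± 0.14 (limma, adjusted p = 0.0114). Rpl37a, a zinc-binding protein of the large subunit, had the largest difference, 0.67 ± 0.16 (limma, adjusted p = 0.0125), with 578.9, 439.8 and 422.1 in LD and 370.3, 278.6 and 258.6 in Ctrl. Rpl4 was higher by 0.42 ± 0.10 (limma, adjusted p = 0.015), and its 3 LD libraries, given above, lay over the 3 Ctrl libraries. Rplp0 had 2085.6, 2081.3 and 1601.4 in LD, and 1626.0, 1356.2 and 1037.5 in Ctrl, and its difference was 0.53 ± 0.15 although the groups overlapped (limma, adjusted p = 0.0274). The groups were separate, with LD higher, for 13 of the 74 genes, against 14.1% of all genes tested.

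**Figure D4:**
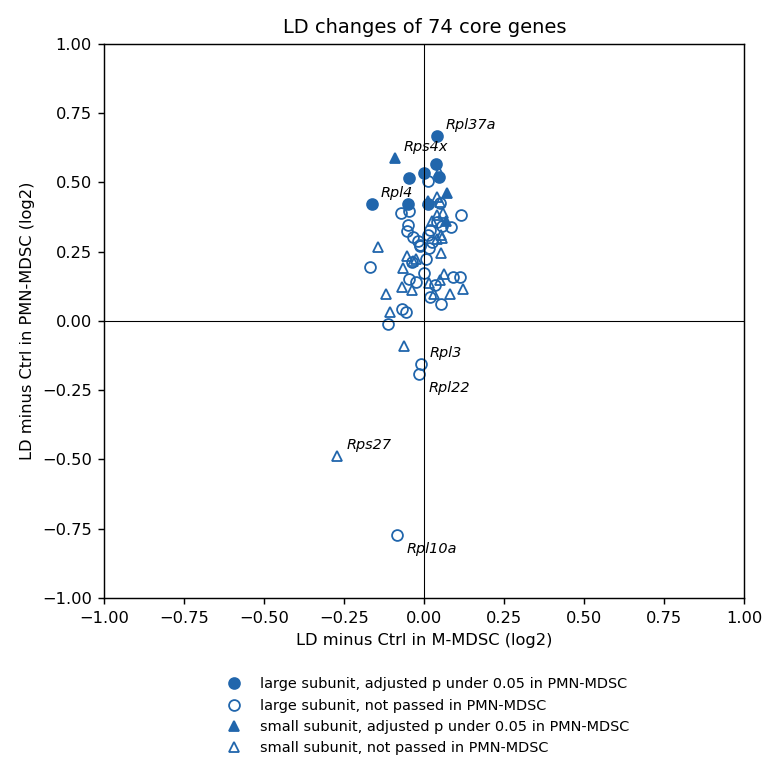
LD minus Ctrl differences (log2) of the 74 core genes in M-MDSC (horizontal axis) and in PMN-MDSC (vertical axis); filled symbols passed the test in PMN-MDSC. With all libraries, the points spread from -0.27 to 0.12 in M-MDSC and from -0.77 to 0.67 in PMN-MDSC, with 68 above 0 in PMN-MDSC.

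None of these 12 calls was made in all 12 fits that left out 1 library. Without PMN-MDSC Ctrl replicate 3, 0 large and 0 small subunit genes passed and the medians were 0.17 and 0.11. Without PMN-MDSC Ctrl replicate 2 the counts were 3 and 3, and without PMN-MDSC Ctrl replicate 1 they were 13 and 5, with medians of 0.41 and 0.36. Fitted differences were above 0 for 39 large and 29 small subunit genes with all libraries. They were above 0 for 34 and 19 without PMN-MDSC Ctrl replicate 3, and for 35 and 23 without PMN-MDSC LD replicate 1. Leaving out PMN-MDSC LD replicate 1, 5 large and 2 small subunit genes were higher and the medians were 0.19 and 0.10. Rpl10a and Rpl3 were then lower in LD, by -1.47 ± 0.21 and -0.47 ± 0.13 (limma, adjusted p = 0.000495 and 0.0212), against -0.77 and -0.16 with all libraries (adjusted p = 0.22 and 0.647). Leaving out PMN-MDSC LD replicate 2 gave 6 and 1 calls, and LD replicate 3 gave 7 and 7, with medians of 0.34 and 0.38. PMN-MDSC LD replicate 1, the highest of its group for 62 core genes, also had the largest sum of cell division genes in PMN-MDSC, and the part of these genes in the result was not tested. None of the 25 cell division genes passed in PMN-MDSC. Without LD replicate 1 of both populations, 6 large and 3 small subunit genes were higher and the same 2 were lower. By edgeR 6 and 2 genes were called and by DESeq2 8 and 6. With libraries scaled to equal totals the counts were 4 and 1, the median of all genes was -0.11, and 35.5% of all calls were higher in LD, against 45.7% with the deposited scaling.

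**Figure D5:**
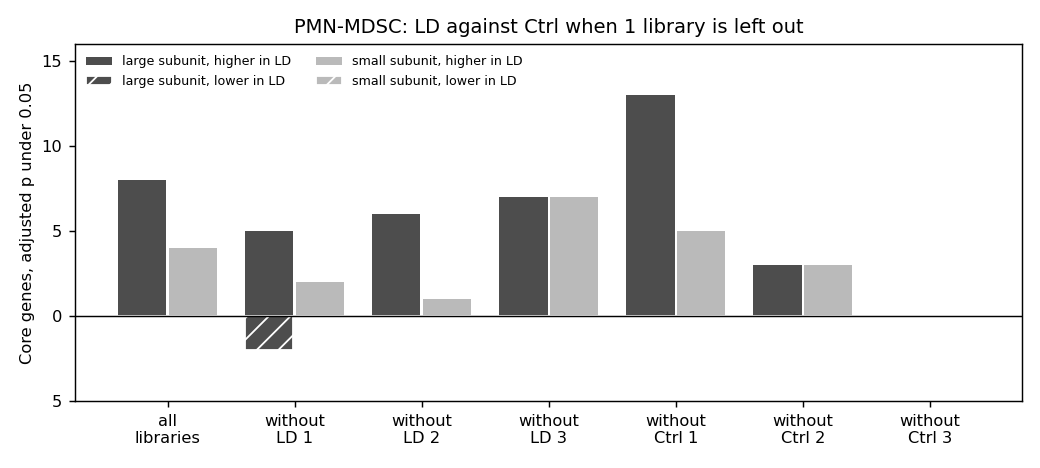
Number of core genes with an adjusted p under 0.05 for LD against Ctrl in PMN-MDSC (vertical axis; counts below the line are lower in LD) with all libraries and with each PMN-MDSC library left out, for large (dark) and small (light) subunit genes. Between 0 and 13 large and between 0 and 7 small subunit genes passed.

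Whether the LD change differed between the populations was tested directly. The fitted change in M-MDSC was below that in PMN-MDSC for 68 of the 74 genes, with a median difference of -0.29 for the large and -0.25 for the small subunit genes. Single libraries moved these medians, to -0.18 and -0.10 without PMN-MDSC Ctrl replicate 3, to -0.19 and -0.11 without PMN-MDSC LD replicate 1 and to -0.21 and -0.16 without M-MDSC Ctrl replicate 2. Without PMN-MDSC Ctrl replicate 3, 11 large and 8 small subunit genes were above 0, against 3 and 3 with all libraries. Leaving out PMN-MDSC LD replicate 1 put 11 large and 6 small subunit genes above 0. An unadjusted p under 0.05 was found for 8 large and 3 small subunit genes. Over all 11122 genes tested it was found for 2000, and 5180 fitted differences were below 0. None of the core genes passed in limma, where 2.25% of all genes tested passed, 1.18% above 0 and 1.07% below 0. The smallest adjusted p was that of Rpl4, whose difference was -0.59 ± 0.15 (limma, adjusted p = 0.0533), followed by Rps4x with -0.68 ± 0.19 (adjusted p = 0.0804). edgeR called 0 genes and DESeq2 called Rpl4 and Rps4x. Without PMN-MDSC LD replicate 1, Rpl4 passed at -0.47 and Rpl10a passed at 1.38 (limma, adjusted p = 0.0375 and 0.0117).

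Of the 9 rows outside the core, 7 were tested. In LD 3 of the 7 (42.9%) were higher in M-MDSC, near the 38.8% of all genes tested, of which 36.1% were lower. In Ctrl 6 were higher and 1 lower, against 38.8% and 36.8% of all genes tested. None passed for LD against Ctrl in either population, where 3.01% of all genes tested passed in M-MDSC and 15.7% in PMN-MDSC. Rpl10l and Rpl39l, paralogs known for expression in testis, had at most 1 and 7 reads in any library. Rpl3l, a striated muscle paralog of Rpl3, made up 0.775 ± 0.502% of the pair's normalized counts in M-MDSC LD and 11.9 ± 7.88% in PMN-MDSC LD, and 0.229 ± 0.177% in M-MDSC Ctrl and 12.1 ± 3.77% in PMN-MDSC Ctrl (SD, n = 3). Its own counts were small, at 34.8, 6.8 and 32.5 in M-MDSC LD, 21.6, 27.9 and 57.5 in PMN-MDSC LD, 9.7, 1.0 and 11.2 in M-MDSC Ctrl, and 46.9, 29.9 and 54.3 in PMN-MDSC Ctrl. Its level was lower in M-MDSC in Ctrl, by -2.77 ± 0.74 on the log2 scale (limma, adjusted p = 0.00361), and did not pass in LD (-0.68, adjusted p = 0.418). Rpl7l1, which acts in large subunit assembly, made up 13.3 ± 0.682% of its pair with Rpl7 in M-MDSC LD and 26.9 ± 2.34% in PMN-MDSC LD, and 13.1 ± 0.426% in M-MDSC Ctrl and 28.6 ± 1.502% in PMN-MDSC Ctrl. The level of Rpl7l1 itself had a log2 difference of 0.11 ± 0.12 in LD and 0.30 ± 0.12 in Ctrl (limma, adjusted p = 0.386 and 0.0269). The Ctrl call was not made without PMN-MDSC Ctrl replicate 3 or M-MDSC Ctrl replicate 2, or with the median difference set to 0 (0.24). In LD Rpl7l1 passed with upper-quartile scaling, at 0.43, and with equal totals, at 0.85 (limma, adjusted p = 0.00368 and 1.16e-05). Rpl7 had 1.38 in LD and 1.72 in Ctrl.

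The share of Rps27l, a p53-inducible paralog, in its pair with Rps27 was 95.0 ± 2.91% in M-MDSC LD and 62.0 ± 15.8% in PMN-MDSC LD. In Ctrl it was 94.5 ± 2.81% in M-MDSC and 61.6 ± 17.1% in PMN-MDSC. These shares are uncertain, since Rps27 has few reads and 1.4% unique 50-base stretches, against 77.6% for Rps27l. The pairs of Rpl3l, Rpl7l1 and Rps27l, 3 of 6, did not overlap between the populations in LD or Ctrl. The exact two-sided permutation test gave p = 0.1 for each, the smallest possible with 3 against 3, and 0.2 adjusted over the 6 pairs. No pair was separate between LD and Ctrl in M-MDSC or in PMN-MDSC. Rpl36al was uneven in PMN-MDSC, at 244.8, 519.2 and 60.3 normalized counts in LD and 53.0, 212.7 and 31.9 in Ctrl, and 63.1% of its exon bases overlap another gene. Rpl22l1, Rps27l and the pseudogene Rps4y2 were higher in M-MDSC in LD and Ctrl (log2 differences of 2.02, 1.47 and 1.72 in LD and of 1.81, 1.11 and 1.75 in Ctrl). The call of Rps27l in Ctrl was not made without M-MDSC Ctrl replicate 2 or without PMN-MDSC Ctrl replicate 1. That of Rps4y2 in LD was not made without M-MDSC LD replicate 3.

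Ribosomal proteins that carry other names fell outside the rule. Of 3 such genes, 2 were higher and 1 lower in M-MDSC in both LD and Ctrl. Among all genes tested 38.8% were higher in each, with 36.1% lower in LD and 36.8% in Ctrl. For LD against Ctrl, 1 of the 3 was higher in PMN-MDSC, where 7.17% of all genes tested were, and 0 passed in M-MDSC. The 2 with values here are Gnb2l1 and Fau. Gnb2l1, the scaffold RACK1 of the small subunit, had log2 differences between M-MDSC and PMN-MDSC of 2.38 in LD and 2.66 in Ctrl. Fau, which encodes a small subunit protein fused to a ubiquitin-like domain, was lower in M-MDSC, by -0.36 ± 0.13 in both LD and Ctrl (limma, adjusted p = 0.0187 and 0.0203). That direction depends on the scaling: with equal totals Fau was called higher in M-MDSC in LD, by 0.37 (limma, adjusted p = 0.0245), and was at 0.27 in Ctrl (adjusted p = 0.089). With edgeR it did not pass in LD (adjusted p = 0.0743). Nor did it pass in LD without PMN-MDSC LD replicate 1 (-0.28), or in Ctrl without M-MDSC Ctrl replicate 3 (-0.28), PMN-MDSC Ctrl replicate 1 (-0.23) or PMN-MDSC Ctrl replicate 2 (-0.33). Fau had 3539.5, 3717.4 and 3626.4 normalized counts in M-MDSC LD and 5276.3, 4553.8 and 4230.7 in PMN-MDSC LD.

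Other genes of ribosome production and translation were also mostly higher in M-MDSC. The shares over all genes tested were 38.8% higher and 36.1% lower in LD, and 38.8% higher and 36.8% lower in Ctrl. Of 81 ribosome assembly factors, 70 were higher and 3 lower in both LD and Ctrl, with medians of 1.96 in LD and 1.74 in Ctrl. The helicase Ddx21 had a difference of 2.71 ± 0.14 in Ctrl (limma, adjusted p = 4.29e-10). Of 76 mitochondrial ribosomal proteins, 50 were higher and 3 lower in LD (median 1.32), and 58 and 3 in Ctrl (median 1.45). Of 23 other TOP genes, 16 were higher and 1 lower in LD (median 1.11), and 18 and 0 in Ctrl (median 1.21). The elongation factor Eef1a1 had 22751.0, 23907.5 and 23340.3 normalized counts in M-MDSC LD, against 7192.9, 5955.6 and 4943.1 in PMN-MDSC LD. Among 27 translation initiation factors 24 were higher and 2 lower in Ctrl (median 0.86), the lower ones being Eif1 and Eif5. Of 15 genes of RNA polymerase I transcription, 9 were higher and 4 lower in LD and in Ctrl.

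Over all genes tested, 38.8% were higher in M-MDSC in LD and in Ctrl, with 36.1% lower in LD and 36.8% in Ctrl. Of 24 MYC and mTORC1 pathway genes tested, 6 were higher and 12 lower in M-MDSC in LD, with a median of -0.27. In Ctrl 6 were higher and 10 lower, with a median of -0.36. The MYC antagonist Mxd1 was lower by -6.58 ± 0.16 (limma, adjusted p = 3.89e-13), with 369.0, 412.4 and 401.7 normalized counts in M-MDSC Ctrl against 38714.0, 37417.8 and 37625.9 in PMN-MDSC Ctrl. Larp1, which binds TOP messenger RNA, was higher by 1.59 ± 0.12 (limma, adjusted p = 2.05e-08). Myc itself was higher by 2.21 ± 0.73 (limma, adjusted p = 0.0129) at levels of at most 29.2 normalized counts in Ctrl libraries, and did not pass without PMN-MDSC Ctrl replicate 3 (1.67). Of the cell division genes, 0 were higher and 19 of 25 lower in M-MDSC in Ctrl, with a median of -1.53, while in LD 1 was higher and 1 lower.

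Within PMN-MDSC, some genes of these lists passed in LD mice, where 7.17% of all genes tested were higher and 8.51% lower. Of the assembly factors 2 were higher, Bysl and Mphosph10, and 7 were lower, among them Heatr1, which acts early in small subunit assembly, with -0.96 ± 0.16 (limma, adjusted p = 0.00167). Mphosph10 lost its call on leaving out replicate 1 (0.49) or 2 (0.54) of PMN-MDSC LD, replicate 2 (0.58) or 3 (0.60) of PMN-MDSC Ctrl, or replicate 1 or 3 of M-MDSC Ctrl (0.62 each). The median of the assembly factors was -0.23, and the difference from the ribosomal protein genes was not tested. The mitochondrial ribosomal proteins had 3 higher and 3 lower with a median of 0.05, and the other TOP genes 1 higher and 1 lower with a median of 0.20. In M-MDSC none of the genes in the lists of ribosome production, translation, and MYC and mTORC1 passed for LD against Ctrl. Of all genes tested there 3.01% passed.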

How the data were processed

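RNA was sequenced from 12 libraries in 4 groups of 3, made from 100 ng of RNA with ribosomal RNA depletion, per the labels' protocols. The authors deposited normalized counts, a signal made by dividing the reads of a gene by a size factor per library. All values (100%) were whole multiples of 1 read within 0.001 reads, so reads could be recovered. Per the submitters' processing notes, STAR 2.5.3a, HTSeq 0.6.1, DESeq2 and the build mm10 were used. Strand settings and the handling of reads that match several genes are not given in the sources used here.

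The model used log2(normalized count + 1) of the 11122 genes with a mean of at least 10 and was made in R (4.3.3) by limma (3.58.1), with a mean per group, a trend in the prior and 8 residual degrees of freedom. Two-sided p-values were adjusted by Benjamini and Hochberg's method across the genes tested, with a threshold of 0.05. Adding 1 understates changes of low genes. Alternatives were pseudocounts of 0.5 and 8, no minimum and a mean of 50, other scalings, the median difference set to 0, robust estimation, sample weights, only the groups compared, replicate blocks, each library left out, and edgeR 4.0.16 and DESeq2 1.42.0 on recovered reads. Results without LD replicate 1 of both populations and for core genes with at least 50% unique stretches were added after the data were seen. The fit was tested on simulated data.

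Of the 86 members, 85 matched a current RefSeq symbol and 1 a synonym. Transcript lengths, coordinates and unique stretches of 50 bases come from GENCODE M21, with 1 transcript taken per gene. Unique shares and levels per kb depend on that choice. The transcripts taken for Rps15a and Rps20 were long, at 5179 and 3706 bases. Python 3.11.15, pandas 2.3.3, scipy 1.17.1 and matplotlib 3.10.9 were used. Members and lists were chosen with earlier results of these data known. Named in each comparison were up to 4 genes per subunit with the smallest adjusted p and up to 2 against the majority, paralog pairs, and genes of set roles in the ribosome. Of each related list up to 4 were named. Rps9, Rpl37, Rpl10a, the other members called in PMN-MDSC, Rpl41, Fau, Larp1, Myc, Heatr1 and the genes whose promoters are printed were chosen after their values were seen. Not every member or list gene is reported by name here. The floor of 3 reads covers counting error only, while the SE and SD values describe the spread between libraries.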

Additional observations from a re-analysis of the deposited data

How the results depend on the processing

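Of 184 results for named genes, 94 passed and 74 of these passed in every alternative, while 20 did not pass in the same direction in at least 1, and 12 others passed in at least 1. Where the main or the alternative fit passed, sign changes came with total-count scaling, which raises M-MDSC values relative to PMN-MDSC values by construction. It put Rps9 at 0.561 in LD and 0.603 in Ctrl and Fau at 0.371 in LD and 0.272 in Ctrl between the populations. Without passing, Rps9 also changed sign with upper-quartile scaling, to 0.147 in LD and 0.267 in Ctrl. With another scaling, TMM, it was at 0.007 in Ctrl. The cause of each shift was not tested unless given. LD against Ctrl in M-MDSC gave 0 calls under every alternative. In PMN-MDSC, leaving out each library gave 0 to 13 large and 0 to 7 small subunit genes, against 8 and 4. Total-count scaling gave 4 and 1, fitting only the 2 groups 5 and 1, and no minimum and edgeR each gave 2 small subunit genes. For the difference of the LD changes, with 0 calls, leaving out each library gave 0 to 2 large subunit genes, 2 without PMN-MDSC LD replicate 1 and 2 without LD replicate 1 of both populations. It was 1 under pseudocount 8, minimum mean 50, the median set to 0, sample weights, both replicate blocks and DESeq2, which also called 1 small subunit gene. Between the populations, leaving out each library gave 42 and 29 to 30 in LD and 43 and 30 in Ctrl. Restricting to core genes with mostly unique stretches tested only 31 genes and so gave 16 and 13 in LD, 17 and 13 in Ctrl, and 3 and 1 in PMN-MDSC for LD against Ctrl.

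Without the 3 most abundant members, which lowers the sums by construction, large subunit shares were 0.861% in M-MDSC LD, 0.847% in M-MDSC Ctrl, 0.182% in PMN-MDSC LD and 0.158% in PMN-MDSC Ctrl, and small subunit shares 0.544, 0.529, 0.115 and 0.101%. Paralog pairs without overlap, with each library left out, numbered 0 to 1 for LD against Ctrl in either population, and between the populations 3 to 4 in LD and 3 to 5 in Ctrl.

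Same-numbered LD and Ctrl libraries, from separate mice, had correlations of -0.047 to 0.001. Between M-MDSC and PMN-MDSC, same-numbered libraries had 0.208, 0.125 and 0.068 in LD and -0.037, 0.054 and 0.135 in Ctrl. Libraries of different number had -0.156 to 0.053 in LD and -0.154 to 0.099 in Ctrl. Whether same-numbered libraries share a mouse is not given, and the main fit did not pair them. With presumed animals as blocks, Rpl4 passed for the difference of the LD changes (-0.588). With the replicate number as a block, 9 large and 6 small subunit genes were called for LD against Ctrl in PMN-MDSC. Few or no reads limit what can be said of Rpl26, Rpl30, Rpl34 and Rps27, whose cause was not tested, and shared sequence limits members with few unique stretches.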
